A study of Arabidopsis thaliana with 6 samples.

Results

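The 10 genes described here are HUP6, HUP9, HUP26, HUP32, HUP36, HUP40, HUP42, HUP54, HUP64 and WIP4 of Arabidopsis thaliana, taken by locus from 32833 genes in the counts. HUP stands for hypoxia responsive unknown protein, a name given to genes whose transcripts increase when oxygen is low and whose products had no known function. WIP stands for wound-induced polypeptide. The data are 3′ RNA-seq counts from 6 libraries of whole seedlings, 3 of wild type Col-0 and 3 of amiRNA-VQ1,10, a line with an artificial microRNA named for the genes VQ1 and VQ10. Both genotypes were grown for 14 days on medium with 1% sucrose in normoxia (21% O2), in 16 h light and 8 h dark, and were taken 4 h after lights on. No library came from low oxygen, so the values describe resting levels of these genes. The labels call the replicates independent and do not give the promoter of the artificial microRNA or the number of lines.

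In plants, low oxygen is sensed through group VII ERF transcription factors. Plant cysteine oxidases use oxygen to mark these factors for breakdown by the N-degron pathway. When oxygen falls the factors persist and switch on a core set of genes, which holds the enzymes of fermentation and many genes of unknown function, among them the HUP genes. In air, most of the core set is known to be kept low.

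Library totals ran from 926209 to 1329817 counts, and amiRNA-VQ1,10 replicate 2, the lowest, stood apart on the first principal component (26.9% of the variance). Counts of VQ1 were 5, 1 and 2 in wild type and 0, 0 and 0 in amiRNA-VQ1,10, and those of VQ10 were 1, 0 and 0 against 0, 0 and 0, too few to check the line. Whole seedlings should hold leaf and root. All 5 leaf markers (RBCS1A, RCA, CA1, CAB1 and LHCB2-1) and all 7 root markers (among them CASP1, ESB1 and MYB36) had counts. The summed level of the root markers was 124 to 152 CPM (the usual per-library scaling of counts, here with TMM-scaled library sizes) in wild type against 101 to 162 CPM in amiRNA-VQ1,10. That of the leaf markers was 16630 to 16953 CPM in wild type against 17507 to 18590 CPM in amiRNA-VQ1,10, without overlap, and its part in the results was not tested. In RNA of whole seedlings, fewer cells of a type and less RNA per cell cannot be told apart.

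By sequence the members are a mixed group of mostly short proteins. In RefSeq TAIR10.1, 6 of the 10 genes have a single exon and 5 encode fewer than 100 residues. The shortest is HUP32 with 66 residues, followed by HUP64 with 83, HUP9 with 87, WIP4 with 90 and HUP42 with 95. HUP42 (AT4G33560) and WIP4 (AT4G10270) are annotated as wound-responsive family proteins. HUP6 (AT3G27220), the longest with 426 residues and 7 exons, is annotated with galactose oxidase/kelch repeats. HUP54 (AT4G27450, 250 residues) belongs to the aluminium-induced proteins with YGL and LRDR motifs. RefSeq gives HUP36 (AT1G19530, 117 residues) and HUP40 (AT4G24110, 250 residues) the product names of a DNA polymerase subunit and a glutamate dehydrogenase. HUP9 (AT5G10040), HUP32 (AT1G33055) and HUP64 (AT5G66985) are listed as uncharacterized. HUP26 (AT3G10020, 149 residues) has no informative product name.

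The promoters were searched on both strands for AAACCA, the core of the anaerobic response element known from ADH1, for AAACCANNNGC, a loose spelling of the hypoxia-responsive promoter element, which contains that core, and for GCCGCC, the GCC box that ERF factors bind. In windows of 300 bases, 250 before and 50 after the annotated start, AAACCA was present in 7 of 10 members, in 16 of 35 other hypoxia genes and in 32.0% of 27443 protein-coding promoters. AAACCANNNGC was present in 2 of 10 members (HUP6 and WIP4), in 4 of the 35 other hypoxia genes and in 1.04% of all promoters. GCCGCC was present in HUP42 alone among the members, in 3 of the 35 other hypoxia genes and in 2.57% of all promoters. HUP26, HUP36 and HUP64 held none of the motifs in this window. A match is a string of letters and not a shown binding site.

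The 250 bases before the start are shown for WIP4, which holds AAACCANNNGC at 2 places, for HUP54, the only member with separate ranges in the 2 genotypes, and for HUP42, the member with both AAACCA and a GCC box. Each is written 5′ to 3′ on the strand of the gene, with coordinates of TAIR10.1. Capitals mark AAACCANNNGC in WIP4 and AAACCA, or TGGTTT on the opposite strand, in HUP54 and HUP42.
WIP4, chr4:6374484-6374733, plus strand: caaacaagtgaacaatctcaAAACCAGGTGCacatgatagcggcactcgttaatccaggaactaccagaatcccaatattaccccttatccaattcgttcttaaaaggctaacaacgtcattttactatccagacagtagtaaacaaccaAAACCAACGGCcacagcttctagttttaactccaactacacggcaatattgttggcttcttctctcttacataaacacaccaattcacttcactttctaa
HUP54, chr4:13729003-13729252, minus strand: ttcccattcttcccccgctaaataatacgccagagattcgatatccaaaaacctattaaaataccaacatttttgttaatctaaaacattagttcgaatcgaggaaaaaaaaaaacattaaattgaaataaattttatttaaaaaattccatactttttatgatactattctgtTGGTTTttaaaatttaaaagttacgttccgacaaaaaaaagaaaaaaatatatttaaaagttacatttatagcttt
HUP42, chr4:16134907-16135156, plus strand: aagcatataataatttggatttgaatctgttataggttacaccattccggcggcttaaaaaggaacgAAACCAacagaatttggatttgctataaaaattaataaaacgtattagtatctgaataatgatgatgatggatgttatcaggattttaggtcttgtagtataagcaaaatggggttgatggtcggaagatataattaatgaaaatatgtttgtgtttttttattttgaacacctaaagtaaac
In WIP4 the capitals start 230 and 100 bases before the start. In HUP54 the core lies on the opposite strand, 76 bases before the start. In HUP42 it lies 183 bases before the start, and the GCC box, on the opposite strand, 202 bases before it. In HUP6 both matches of AAACCANNNGC lie after the annotated start and are not shown.

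All 10 members had counts in all 6 libraries, with 28 (HUP9) to 419 (HUP54) counts per gene in total. HUP9 and HUP32 had too few counts for the filter, and 8 members were tested. None of the 8 was called between the genotypes (edgeR quasi-likelihood test, adjusted p under 0.05 over 12701 genes). DESeq2 and limma-voom also called 0. At an unadjusted p under 0.05 there was 1 member, HUP54. Over all tested genes 0.102% were called (0.0236% higher and 0.0787% lower) and 6.02% had an unadjusted p under 0.05, so that a count of 0 among 8 is what the background gives. Of the 8 log2 fold changes (amiRNA-VQ1,10 over wild type) 6 lay above 0 and 2 below, with a median of 0.22. Over all tested genes 50.7% lay above 0, and the median was 0.0035. Levels are compared below within a gene, not between genes.

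**Figure D1:**
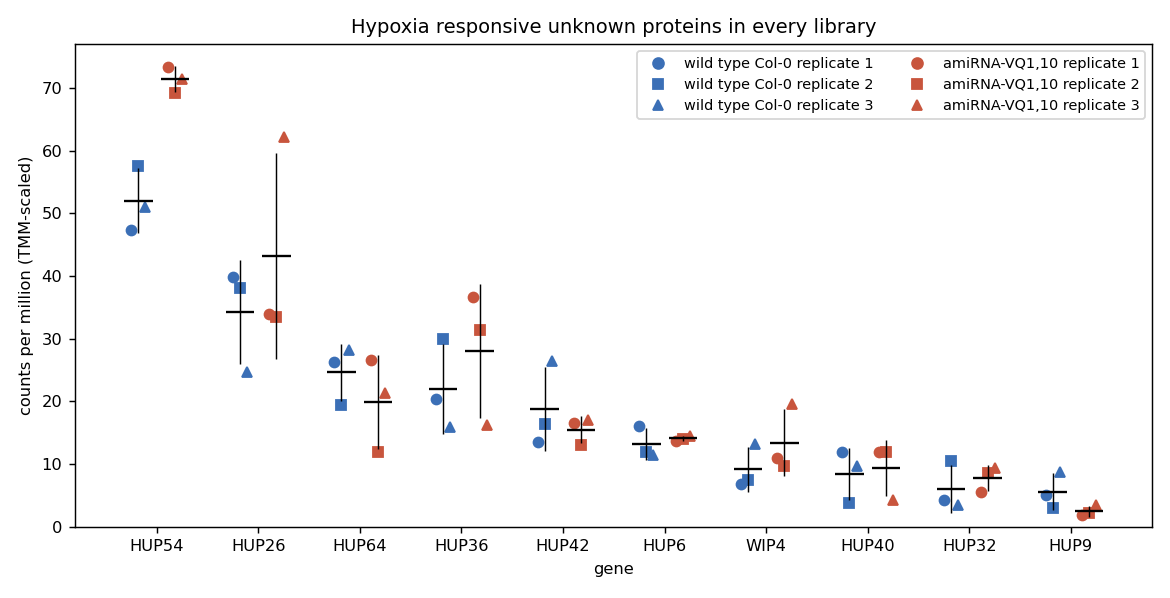
Level of each of the 10 genes in every library, in CPM (TMM-scaled, linear axis from 0); blue is wild type Col-0, red amiRNA-VQ1,10, marker shapes are replicates, bars the mean and thin lines the SD (n = 3). HUP54 is the only gene whose 3 amiRNA-VQ1,10 libraries (69.3 to 73.4 CPM) all lie above the 3 wild type libraries (47.4 to 57.6 CPM).

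HUP54 had the most counts and the narrowest interval. Its level was 47.4, 57.6 and 51.1 CPM in wild type replicates 1 to 3 and 73.4, 69.3 and 71.5 CPM in amiRNA-VQ1,10. The 3 amiRNA-VQ1,10 libraries were close together and all lay above the 3 wild type libraries. Separate ranges in either direction were found for 1 of the 8 tested members and for 10.4% of all tested genes (5.28% higher and 5.1% lower). The mean was 52.1 ± 5.18 CPM in wild type against 71.4 ± 2.06 CPM in amiRNA-VQ1,10 (SD, n = 3). The difference on the log2 scale was 0.45 ± 0.14 (SE; 95% interval 0.16 to 0.75) and did not pass over all genes (edgeR adjusted p = 0.432). As a fold this is 1.37, with an interval of 1.12 to 1.68. The value lay between 0.39 and 0.54 with any 1 library left out.

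HUP54 shares 71 bases at its 3′ end with PORB (AT4G27440), which lies on the opposite strand and encodes a light-dependent enzyme of chlorophyll synthesis. Reads of 3′ RNA-seq come from the end of a transcript, and the strand setting of the counting is not given. PORB stood at 57.6, 77.1 and 88.9 CPM in wild type against 114.7, 97.4 and 84.3 CPM in amiRNA-VQ1,10. Its ranges overlapped, since wild type replicate 3 was above amiRNA-VQ1,10 replicate 3. The log2 fold change of PORB was 0.40 ± 0.15 (SE, edgeR adjusted p = 0.632), close to that of HUP54. Whether reads of PORB entered the count of HUP54 was not tested.

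HUP54 has 4 protein relatives, and the closest of them was called. AT3G15450, with 71.3% identity over 251 aligned residues, stood at 38.96, 51.7 and 55.5 CPM in wild type replicates 1 to 3, and at 90.8, 134.2 and 100.5 CPM in amiRNA-VQ1,10. Its ranges were separate, and replicate 2 was highest in amiRNA-VQ1,10. The mean was 48.7 ± 8.65 CPM in wild type against 108.5 ± 22.8 CPM in amiRNA-VQ1,10 (SD, n = 3). It rose by 1.14 ± 0.16 on the log2 scale (SE; 95% interval 0.81 to 1.47; edgeR adjusted p = 6.8e-04), an interval that lies above that of HUP54. The change of AT3G15450 was past the threshold under every alternative run, with log2 values of 0.97 to 1.25. The other relatives are AILP1 (48.1% identity), AT5G43830 and AT3G22850 (47.0% each). Their log2 fold changes were 0.09 ± 0.09, -0.18 ± 0.11 and -0.12 ± 0.16 (SE), and none passed (edgeR adjusted p = 0.956, 0.891 and 0.972). AT5G43830 had separate ranges, lower in amiRNA-VQ1,10. The difference between HUP54 and its relatives was not tested.

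**Figure D2:**
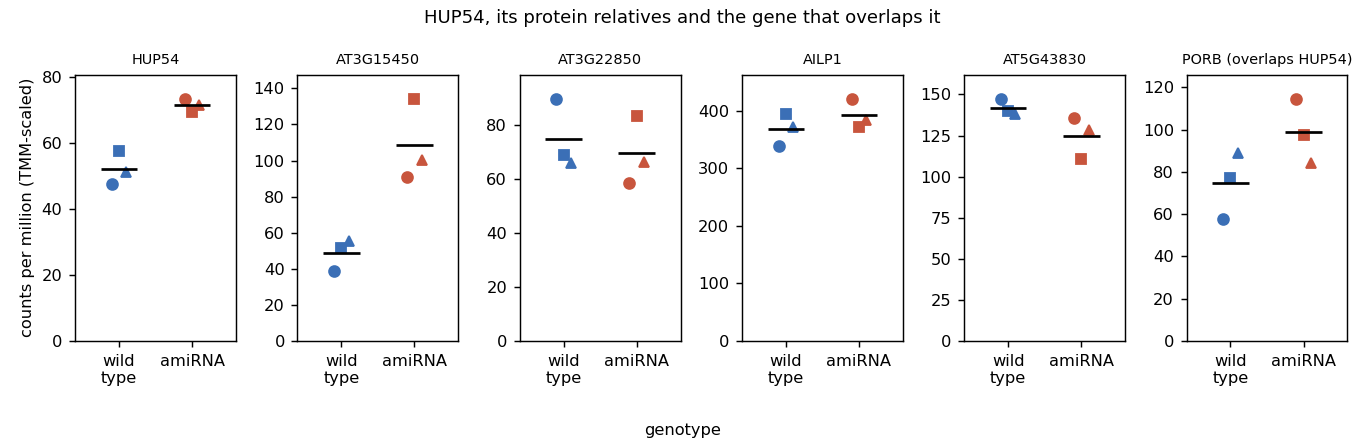
Level of HUP54, its 4 protein relatives and PORB in each library, in CPM (TMM-scaled, each panel with its own axis from 0); blue is wild type, red amiRNA-VQ1,10, marker shapes are replicates and bars the mean of 3. AT3G15450 goes from 48.7 to 108.5 CPM on average, and HUP54 from 52.1 to 71.4 CPM.

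Genes known to be induced in darkness and sugar starvation were also measured. All 10 tested genes of a list of 11 had a log2 fold change above 0 (median 0.63), and none was called (edgeR; 5 at an unadjusted p under 0.05, and 0 calls with DESeq2 or limma-voom). The ranges of the genotypes overlapped for 7 of the 10. Over all tested genes 50.7% lay above 0, 6.02% had an unadjusted p under 0.05 and 10.4% had separate ranges. The list was chosen with earlier results of these data known, so its counts are a description and no independent support. The summed level of the whole list was 142 to 207 CPM in wild type against 218 to 359 CPM in amiRNA-VQ1,10, without overlap. It was highest in amiRNA-VQ1,10 replicate 2. SEN1, a dark-induced senescence gene, had a log2 fold change of 1.88 ± 0.42, DIN10, a dark-inducible raffinose synthase, 0.93 ± 0.26, TPS11 of trehalose metabolism 0.71 ± 0.22 and the transcription factor BZIP1 0.63 ± 0.22 (SE). SEN1 was called without wild type replicate 2 (edgeR adjusted p = 0.0499), and SEN1 and DIN10 without amiRNA-VQ1,10 replicate 1 (0.00696 and 0.0463). In the fits that left out any other library, no gene of the list was called. Without amiRNA-VQ1,10 replicate 2 the median of the list was 0.44. With no filter on low counts SEN1 and DIN10 were called (edgeR adjusted p = 8.6e-08 and 0.0026).

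WIP4 had the largest log2 fold change of the 8, and also one of the widest intervals. Its counts were 8, 10 and 15 in wild type and 12, 9 and 23 in amiRNA-VQ1,10, or 6.78, 7.49 and 13.2 CPM against 11.01, 9.74 and 19.6 CPM. The ranges overlapped, and replicate 3 was highest in each genotype. The log2 fold change was 0.60 ± 0.35 (SE; 95% interval -0.13 to 1.33; edgeR adjusted p = 0.861), with 0.20 if amiRNA-VQ1,10 replicate 3 was left out and 0.93 if replicate 3 of wild type was. WIP4 shares 86 bases at its 3′ end with AT4G10280 on the opposite strand, which had 15.9 to 24.7 CPM in wild type against 14.5 to 27.1 CPM in amiRNA-VQ1,10. It shares 377 bases, from its 5′ end, with AT4G05775, also on the opposite strand, which had 1 count in all. The closest relative of WIP4, AT4G10265 (69.7% identity), lies next to it on chromosome 4 and had only 1 or 2 counts per library.

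HUP42, the other wound-responsive family member, did not follow WIP4 in direction. Its level was 13.6, 16.5 and 26.4 CPM in wild type against 16.5, 12.99 and 17.0 CPM in amiRNA-VQ1,10. Wild type replicate 3 was the highest, and the other 5 libraries lay between 12.99 and 17.0 CPM. The log2 fold change was -0.25 ± 0.28 (SE; 95% interval -0.83 to 0.33; edgeR adjusted p = 0.965), with 0.052 if wild type replicate 3 was left out and -0.43 if replicate 1 was. AT2G14070, its relative with 48.9% identity, had 2 counts in all, 1 in each genotype. Among the genes of wounding and jasmonate 5 of 9 were tested and none was called (median -0.066; 1 at an unadjusted p under 0.05, with DESeq2 and limma-voom also at 0). VSP2, a storage protein induced by jasmonate, had a log2 fold change of -0.37 ± 0.12, AOS -0.078 ± 0.094, JAZ1 0.27 ± 0.34 and OPR3 -0.066 ± 0.19 (SE). VSP2 was called without amiRNA-VQ1,10 replicate 3 (adjusted p = 0.0228).

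HUP26, HUP36 and HUP40 had the widest spread among replicates of the 10 members for their counts. The chi-square of their counts within genotypes, per degree of freedom, was 4.59, 3.70 and 2.55. It lay between 0.293 and 1.98 for the other 7 members. For pairs of replicates, averaged over the tested genes with more counts, it lay between 1.27 and 1.68. Such an average varies less than the value of a single gene. HUP26 stood at 39.8, 38.2 and 24.7 CPM in wild type against 33.9, 33.6 and 62.2 CPM in amiRNA-VQ1,10. Its highest library was amiRNA-VQ1,10 replicate 3 and its lowest wild type replicate 3. The log2 fold change of HUP26 was 0.35 ± 0.23 (SE; 95% interval -0.11 to 0.82; edgeR adjusted p = 0.885), and -0.030 without amiRNA-VQ1,10 replicate 3. HUP36 stood at 20.3, 29.9 and 15.9 CPM in wild type against 36.7, 31.4 and 16.2 CPM in amiRNA-VQ1,10, so that replicate 3 was the lowest of each genotype. Its log2 fold change was 0.30 ± 0.27 (SE; 95% interval -0.26 to 0.87; edgeR adjusted p = 0.941), and 0.038 without amiRNA-VQ1,10 replicate 1, but 0.61 without either wild type replicate 2 or amiRNA-VQ1,10 replicate 3. HUP40 stood at 11.9, 3.74 and 9.69 CPM in wild type against 11.9, 11.9 and 4.26 CPM in amiRNA-VQ1,10. It was low in 1 library of each genotype, and the fold change (0.15 ± 0.43, SE; 95% interval -0.75 to 1.04; edgeR adjusted p = 0.989) took the opposite sign in 3 of the 6 fits with a library left out.

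**Figure D3:**
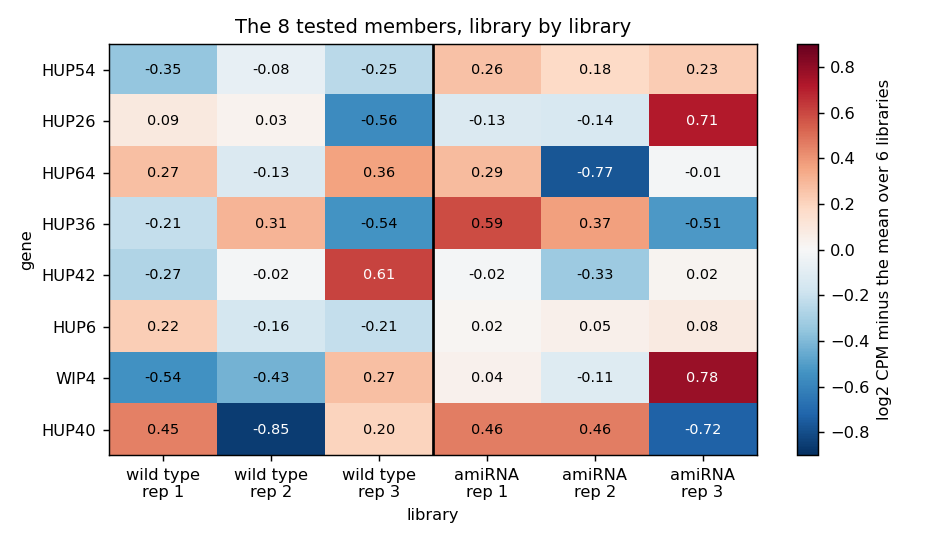
Level of the 8 tested genes in each library as log2 CPM minus the mean of that gene over the 6 libraries (rows are genes, columns libraries, colour and printed value the difference). HUP54 is below 0 in all 3 wild type libraries and above 0 in all 3 amiRNA-VQ1,10 libraries; in the other 7 rows the values of the 2 genotypes overlap, and in amiRNA-VQ1,10 replicate 3 HUP26 and WIP4 are high (0.71 and 0.78) where HUP36 and HUP40 are low (-0.51 and -0.72).

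HUP64 and HUP6 complete the tested members. HUP64, a short protein of unknown function, stood at 26.3, 19.5 and 28.2 CPM in wild type against 26.6, 11.9 and 21.3 CPM in amiRNA-VQ1,10. Only amiRNA-VQ1,10 replicate 2 lay below the rest, and its log2 fold change of -0.26 ± 0.26 (SE; 95% interval -0.79 to 0.27; edgeR adjusted p = 0.959) was -0.033 without that library. Leaving out amiRNA-VQ1,10 replicate 1 gave -0.51, and leaving out wild type replicate 2 gave -0.42. HUP6, the kelch repeat protein, stood at 16.1, 12.0 and 11.4 CPM in wild type against 13.8, 14.1 and 14.5 CPM in amiRNA-VQ1,10. The amiRNA-VQ1,10 values of HUP6 lay inside the wild type range, with a log2 fold change of 0.10 ± 0.28 (SE; 95% interval -0.48 to 0.68; edgeR adjusted p = 0.989). Leaving out wild type replicate 1 gave 0.26, and leaving out replicate 3 of wild type gave 0.018. The relative of HUP6, AT1G51540 (63.4% identity), had 4 to 12 counts per library and did not pass the filter.

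HUP9 and HUP32 could be described only from few counts. HUP9 had 6, 4 and 10 counts in wild type and 2, 2 and 4 in amiRNA-VQ1,10. In CPM the lowest wild type library (2.99) lay below the highest amiRNA-VQ1,10 library (3.41), so the ranges overlapped. Pooled over raw library totals, without TMM scaling, the 20 wild type counts give 5.51 CPM with an exact Poisson 95% interval of 3.37 to 8.51. On the same unscaled basis the 8 amiRNA-VQ1,10 counts give 2.49 CPM with an interval of 1.08 to 4.91. These intervals cover counting error only. With the 6 libraries permuted exactly, the two-sided p was 0.2 (exact permutation test), where 3 against 3 cannot give less than 0.1. The whole annotated gene of HUP9 lies inside TGA4, a bZIP factor gene on the opposite strand, which had 15.9 to 25.5 CPM in wild type against 14.1 to 19.6 CPM in amiRNA-VQ1,10. How reads in this overlap were assigned is not known. AT5G65207, the relative of HUP9 with 45.7% identity, had a log2 fold change of 0.25 ± 0.26 (SE, edgeR adjusted p = 0.965), with separate ranges, higher in amiRNA-VQ1,10.

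HUP32 had 5, 14 and 4 counts in wild type and 6, 8 and 11 in amiRNA-VQ1,10. The ranges overlapped, with wild type libraries at both ends (exact permutation p = 0.5, two-sided). Its 3′ end shares 225 bases with AT1G33050 on the same strand. Reads placed in more than 1 gene have their own entry in the counts and stayed out of the gene values. How many reads of HUP32 were lost in this way is not known. AT1G33050 had a log2 fold change of -0.23 ± 0.29 (SE, edgeR adjusted p = 0.969).

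The precision sets what the comparison could show. For 6 of the 8 tested members the 95% interval of the edgeR fit lay within 2-fold in either direction. The width of these intervals rests partly on spread shared across genes. HUP26 and HUP36 are among the 6, and their own chi-square per degree of freedom within genotypes was the highest of the members (4.59 and 3.70). No interval was computed from the replicates of a gene alone. For WIP4 and HUP40 the interval reaches past 2-fold, up to 2.52-fold and 2.06-fold higher. The interval includes 0 for 7 of the 8 and lies above 0 for HUP54. Summed over all 10 members, the level was 191, 198 and 193 CPM in wild type against 231, 206 and 239 CPM in amiRNA-VQ1,10. Without HUP54 the sums were 144.0, 140.7 and 141.8 CPM against 157.8, 136.4 and 167.7 CPM, and the ranges overlapped. Of the 8 fold changes 5 kept their sign under every alternative in which they could be fitted (HUP54, WIP4, HUP36, HUP6 and HUP64), and HUP26, HUP40 and HUP42 changed sign when some library was left out.

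**Figure D4:**
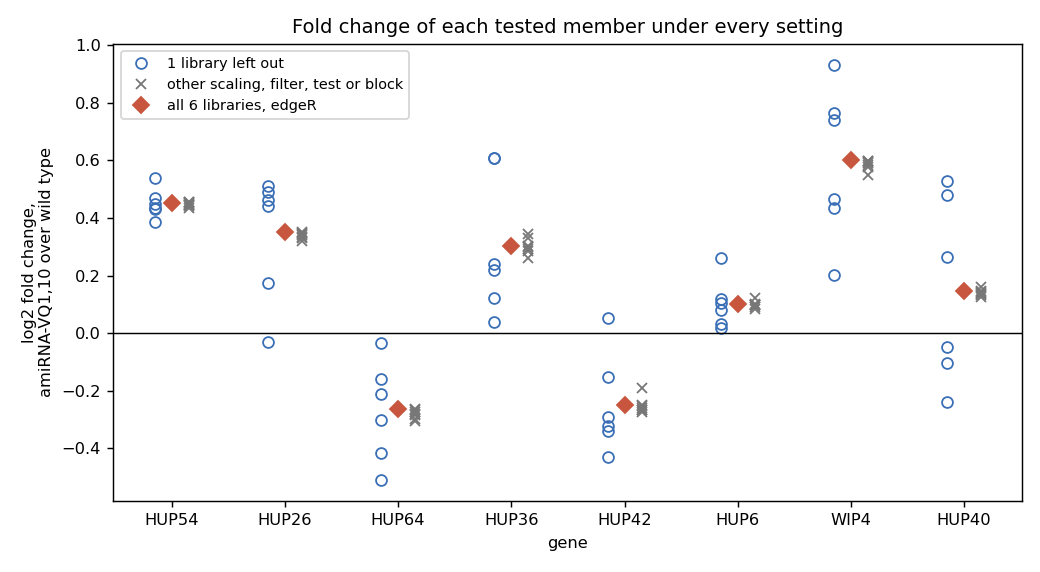
Log2 fold change (amiRNA-VQ1,10 over wild type) of each tested gene in the fit of all 6 libraries (red diamonds), with 1 library left out (blue circles) and under other scalings, filters, tests or the block (grey crosses). The values of HUP54 stay between 0.39 and 0.54, and those of HUP26, HUP40 and HUP42 lie on both sides of 0.

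The other genes of the hypoxia response did not pass either. Of 35 listed, 26 were tested, with 12 log2 fold changes above 0 and 14 below (median -0.0084), and none was called (edgeR; 1 at an unadjusted p under 0.05, and 0 with DESeq2 or limma-voom). Of the fermentation and sugar enzymes 5 of 7 tested lay below 0 (median -0.23). PDC1 and ADH1, which make ethanol from pyruvate, had -0.43 ± 0.23 and -0.42 ± 0.22 (SE), and sucrose synthase SUS4 had -0.45 ± 0.34. LDH, which makes lactate, had 0.43 ± 0.22 with separate ranges. ADH1 had separate ranges in the opposite direction, with 26.0 ± 1.72 CPM in wild type against 19.5 ± 1.77 CPM in amiRNA-VQ1,10 (SD, n = 3). The adjusted p of these 4 genes lay between 0.842 and 0.921 (edgeR). Of the 26 tested genes, 1 had separate ranges higher and 1 lower in amiRNA-VQ1,10, against 5.28% and 5.1% of all tested genes.

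Of the sensors and regulators 8 of 9 were tested, with a median of 0.074. The oxygen-sensing plant cysteine oxidases PCO2 and PCO1 had log2 fold changes of -0.77 ± 0.40 and -0.26 ± 0.25 (SE). The group VII factor RAP2-12 had 0.15 ± 0.17, and HRE1, a factor of the same group whose own transcript responds to hypoxia, had 0.28 ± 0.39 (SE; edgeR adjusted p from 0.856 to 0.974 for the 4 genes). Of the other hypoxia-induced genes 11 of 18 were tested (median -0.0061). PHI-1, an exordium-like protein, had the lowest p with 1.27 ± 0.40 (SE, edgeR adjusted p = 0.436). Its counts were 6, 8 and 11 in wild type and 10, 27 and 16 in amiRNA-VQ1,10. PP2-A13 and PP2-A11, phloem lectin-like proteins, had 0.32 ± 0.22 and 0.32 ± 0.23, and the desaturase SAD6 had -0.49 ± 0.40 (SE).

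**Figure D5:**
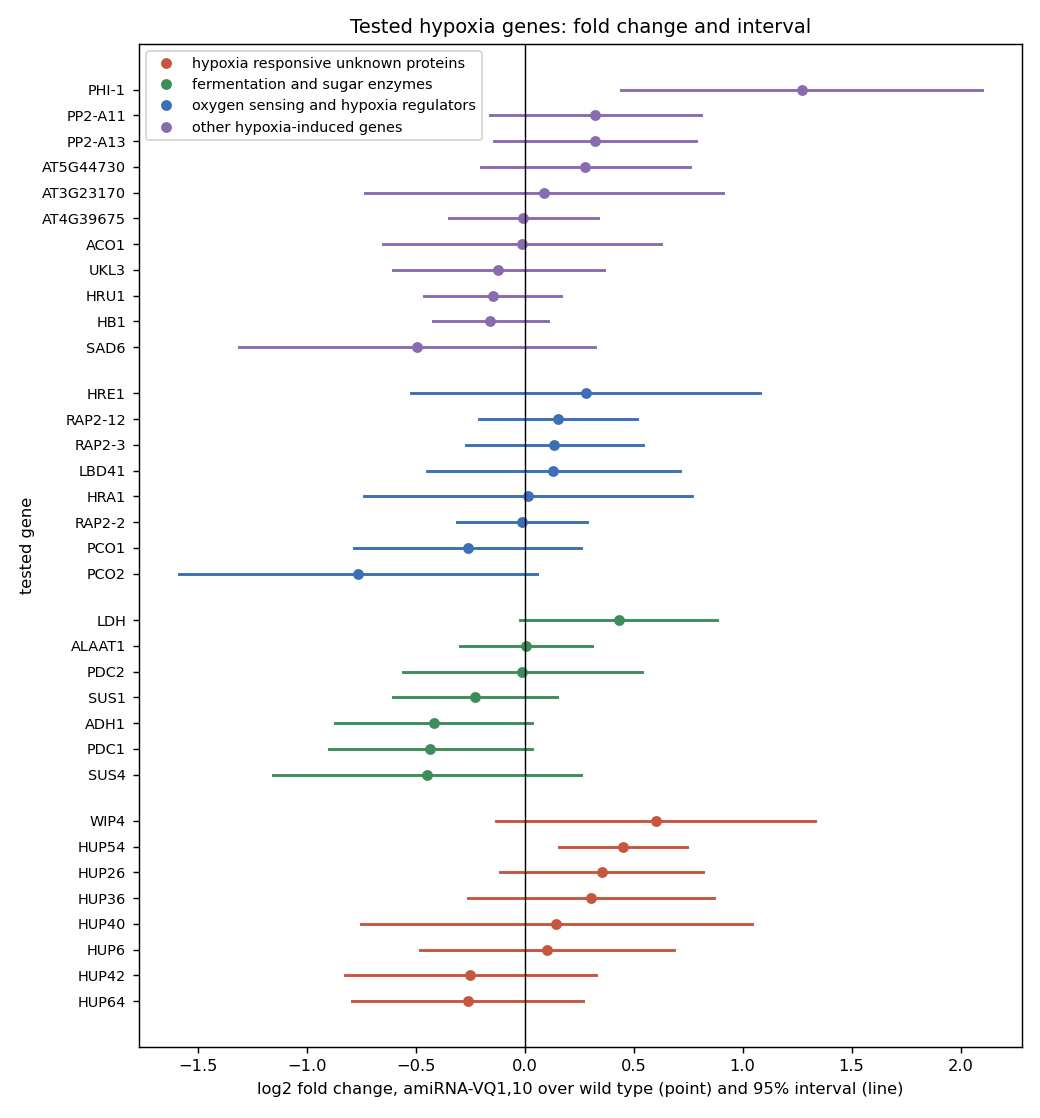
Log2 fold change (points) with its 95% interval (lines) for each tested hypoxia gene, amiRNA-VQ1,10 over wild type, coloured by list. The interval lies wholly on 1 side of 0 for HUP54 (0.16 to 0.75) and PHI-1 (0.44 to 2.10), and it includes 0 for every other gene shown. The intervals are not adjusted for the number of genes, and 6.02% of all tested genes had an unadjusted p under 0.05.

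The genes whose pattern over the 6 libraries was most like that of HUP54, the member of smallest p, were sought among 8112 other tested genes with at least 20 CPM on average. The measure was the root mean square difference of centred log2 CPM, with a median of 0.29 over these genes. The 5 nearest were PMD2 and UDG4 (0.0438 and 0.0443), GK-1 (0.0696), AT4G22517 (0.0703) and AT5G10745 (0.0731). Their log2 fold changes lay between 0.34 and 0.50, and none was called (edgeR adjusted p from 0.343 to 0.859). This is a description over 6 libraries, in which genes with a like small difference between the genotypes are near each other by construction.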

How the data were processed

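Each library's deposited file holds raw counts, whole numbers per gene that the authors did not normalize. The submitters' processing notes name TAIR10, STAR, HISAT2 2.0.4 and DESeq2 without saying which did what. The labels' protocols give a molecular identifier of 6 bp. How it was used, the counting program and its strand setting were not given in the sources used here. Entries that name no gene stayed out: reads outside genes (3.79% to 4.07% of a library's entries), in more than 1 gene (0.103% to 0.109%) or with more than 1 alignment (4.40% to 5.45%).

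Of 32833 genes in the files, 22738 had a count and 12701 passed the filter (filterByExpr, minimum count 10, minimum total 15). The main test between genotypes was edgeR's quasi-likelihood test (edgeR 4.0.16, R 4.3.3) with TMM scaling, with p adjusted by Benjamini-Hochberg across the 12701 genes, a threshold of 0.05 and no batch term, since the labels name none. SE was obtained by dividing a log2 fold change by the root of F, and intervals are 95% intervals of that fit. Members under the filter were compared by an exact permutation test over libraries. The fit was tested on simulated data. Alternative settings were 3 scalings, a strict filter (50 counts in 3 libraries) or none, DESeq2 1.42.0, limma-voom (limma 3.58.1), the replicate number as a block and each library left out in turn. The edgeR p-values set a difference against the spread between these libraries, with information shared across genes. No p-value covers a spread between lines, whose number is not given.

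Positions, overlaps, promoters and coding sequences came from RefSeq TAIR10.1 by locus tag, and no coordinate of the files was involved. Protein relatives were found by blastp on translated coding sequences (e-value at most 1e-10, at least 50% of the member covered). For these 10 loci that annotation gives no HUP or WIP name. Members, lists and the rule for named genes (all members, VQ1 and VQ10, up to 4 genes of smallest p per list, every relative, and 5 genes most like the member of smallest p) were chosen with earlier results of these data known. Genes that overlap a member were added after their values were seen.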

Additional observations from a re-analysis of the deposited data

How the results depend on the processing

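No member was called under any of the 14 alternatives in which it could be fitted (14 for HUP54, 5 for HUP32, 1 for HUP9 and 13 for each of the others), and the adjusted p ranged from 0.327 to 1.00. The 13 genes called among all tested became 92 with no filter, 6 with a strict filter, 6 with DESeq2 and 8 with limma-voom, and 10 to 37 with 1 library left out. With no filter 22738 genes were tested; there, 1 gene of the other hypoxia-induced list (PHI-1, median of the list 0.18), 2 of dark and sugar starvation and 1 of wounding and jasmonate were called, and the cause was not tested. In that fit HUP9 and HUP32 had log2 fold changes of -1.10 ± 0.60 and 0.31 ± 0.42 (SE, adjusted p = 0.908 and 0.940). The strict filter left 1 member, HUP54, so that the median became 0.45; the medians of the fermentation and sugar enzymes (9.6e-04), other hypoxia-induced genes (-0.15) and wounding and jasmonate (-0.23) likewise rest on 1, 3 and 2 genes, and no gene of dark and sugar starvation was left. With 1 library left out the members' median was 0.12 to 0.26, that of the sensors and regulators -0.097 to 0.10, of the other hypoxia-induced genes -0.13 to 0.19 and of wounding and jasmonate -0.21 to -0.056. The calls were then 0 to 2 for dark and sugar starvation and 0 to 1 for wounding and jasmonate. Log2 fold changes were -0.030 to 0.51 for HUP26, -0.24 to 0.53 for HUP40, -0.43 to 0.052 for HUP42 and -0.25 to 0.026 for AT3G22850. Same-numbered libraries did not deviate together (correlations -0.0065, -0.025 and -0.032), so the replicate number names libraries and does not pair them; with it as a block 1 gene of dark and sugar starvation (SEN1, adjusted p = 0.0030) was called and no member. Of the other scalings, library totals moved the median of all genes most, by -0.018. At 28 to 419 counts per member, depth limits what can be seen, least for HUP54 and most for HUP9.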
